A study of Rattus norvegicus with 9 samples.

Results

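The genes described here are 10 fibroblast identity markers, chosen by symbol: *Thy1*, *S100a4*, *Vim*, *P4hb*, *Fap*, *Dpp4*, *Pi16*, *Dpt*, *Cd34* and *Clec3b*. Each symbol named 1 row, so the markers are 10 of the 32883 genes of the deposited matrices. RNA was measured in cultured fibroblasts (Fb) of wild-type (WT) rats of the Lewis strain, in 3 libraries for each of 3 types. Fb-Epn came from the epineurium, the outer connective tissue sheath of the nerve, and Fb-Par from the parenchyma that this sheath encloses, both taken from the sciatic nerves of 2 male rats. Fb-Skn were grown from abdominal skin of a further rat, 1 male animal, after the fat beneath the skin had been removed. All rats were 10 weeks old, no treatment or allele separates the types, and all cells were grown in serum-containing medium on uncoated plastic and passaged 1 time before RNA extraction. With these numbers of rats the 3 libraries of a type are not 3 separate animals, and separate cultures are not stated, so p-values measure only the spread between these samples. Fb-Skn differ from both nerve types in tissue, in rat and in body site at the same time, and these cannot be told apart. The cells were not sorted, the medium was changed soon after seeding, and other cells that had attached by then may belong to the sample. The study also stained such cultures for proteins of fibroblasts, Schwann cells and endothelium, which is not analysed here.

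No marker is exclusive to fibroblasts, and they are therefore usually read together. *Thy1*, *Vim*, *S100a4* and *P4hb* are the classical markers used to recognise fibroblasts in culture and in tissue sections. *Fap* and *Dpp4* encode related serine proteases of the cell surface, the first best known from activated and tumour-associated fibroblasts. *Pi16*, *Dpt*, *Cd34* and *Clec3b* came into use with single-cell work, in which they mark resting fibroblasts of the adventitia and of loose connective tissue, *Cd34* also marking endothelial cells and endoneurial fibroblasts of the nerve.

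Libraries held 10084584 to 12310506 counts, replicates varied by 8.25% (edgeR's common coefficient of variation), and all 10 markers passed the expression filter that left 13273 genes to test. Levels are given as TPM (transcript abundance corrected for gene length and scaled to a fixed sum), and differences as log2 fold changes from edgeR's quasi-likelihood test on the counts, with the standard error (SE) and a Benjamini-Hochberg adjusted p over all genes tested. A gene was called at an adjusted p under 0.01, and a DE gene was also beyond a log2 fold change of 2 in either direction. The cells are labelled fibroblasts, and collagen genes were abundant in all types: *Col1a1*, the main chain of type I collagen, was at 15869 ± 196 TPM in Fb-Epn, 13724 ± 315 TPM in Fb-Par and 21077 ± 449 TPM in Fb-Skn (mean ± SD, n = 3 here and below). In bulk RNA, fewer cells of a type and less RNA per cell cannot be told apart, which holds for each difference below.

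The markers were not all highest in the same type. *Thy1*, *S100a4* and *Vim* were highest in Fb-Skn, *P4hb*, *Fap* and *Pi16* in Fb-Epn, and *Dpp4*, *Dpt*, *Cd34* and *Clec3b* in Fb-Par. In Fb-Epn against Fb-Skn, 9 of the 10 markers were called, 5 higher and 4 lower in Fb-Epn, where 43.9% of all tested genes were called, 23% higher and 20.9% lower. Between Fb-Epn and Fb-Par, 9 were called, 5 higher and 4 lower in Fb-Epn, against 38.8% of all tested genes, 20.2% higher and 18.6% lower. Between Fb-Par and Fb-Skn all 10 were called, 6 higher and 4 lower in Fb-Par, against 45.6% of all tested genes, 23.2% higher and 22.4% lower. The 3 comparisons share libraries and are not independent of each other. Scaling by library size alone moved the share of higher calls among all genes from 52.3% to 63.7% in the first and from 50.8% to 61.9% in the last of these comparisons.

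Far fewer markers differed by a large amount. Between Fb-Epn and Fb-Skn the DE genes were *Thy1*, *Dpt*, *Cd34* and *Clec3b* (4 of 10, background 8.44%), *Dpt* between Fb-Epn and Fb-Par (1 of 10, background 6.48%), and *Cd34* and *Clec3b* between Fb-Par and Fb-Skn (2 of 10, background 8.54%). The TPM of the types did not overlap for any of the 10 markers in any comparison, whereas 61.4%, 57.3% and 61.7% of all tested genes did not overlap in the same order of comparisons. The median log2 fold change of the markers was 0.48, -0.03 and 0.57, beside -0.00, -0.00 and -0.01 for all tested genes.

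**Figure D1:**
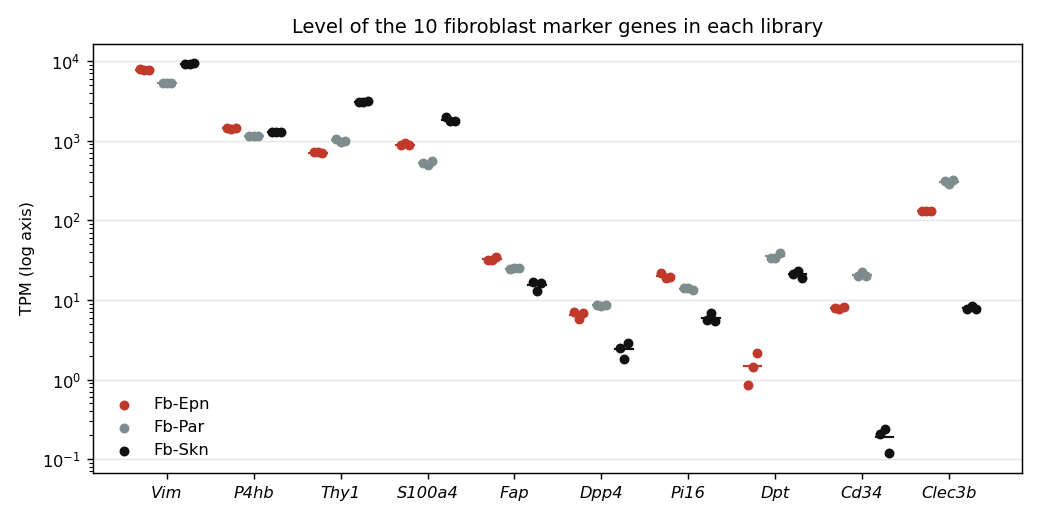
TPM of the 10 marker genes in each library on a log axis, with Fb-Epn in red, Fb-Par in grey and Fb-Skn in black; points are libraries and short lines are means of 3. The markers run from 9317 TPM for *Vim* in Fb-Skn down to 0.188 TPM for *Cd34* in Fb-Skn, and *Dpt*, *Cd34* and *Clec3b* have the widest gaps between types.

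**Figure D2:**
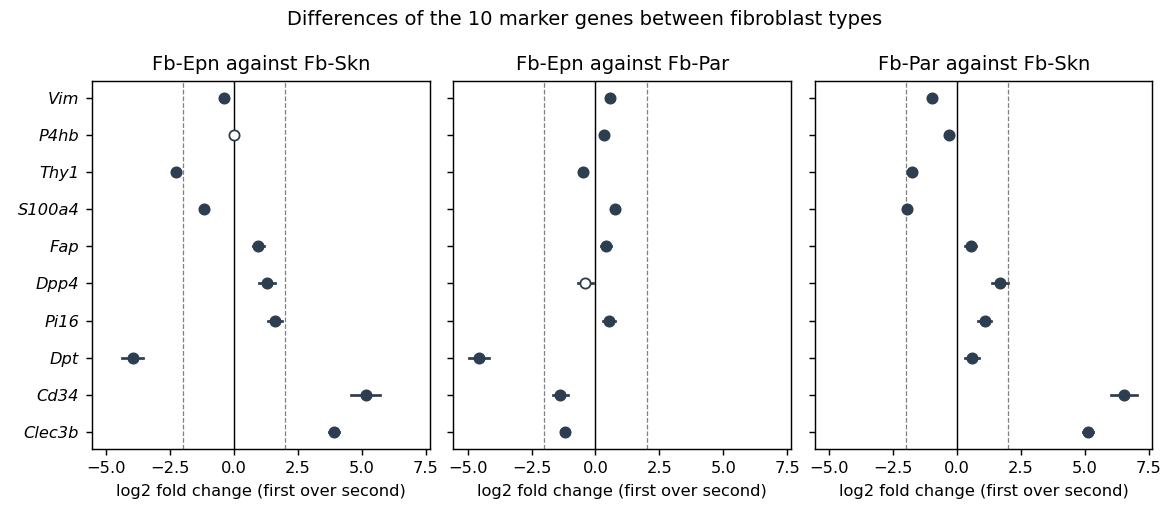
Log2 fold change of each marker in the 3 comparisons (first type over second), with bars for the 95% confidence interval, filled points for called genes and dashed lines at the threshold for DE genes. The bars are derived from the F statistic of the test. For *Cd34* and *Clec3b* against Fb-Skn they are narrower than counting error alone allows and overstate the precision. The open points are *P4hb* in the left panel, at 0.01, and *Dpp4* in the middle panel, at -0.40.

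The most abundant marker was *Vim* (ENSRNOG00000018087, chromosome 17, 80882666 to 80891212 on the plus strand of rn6), which encodes vimentin, the main intermediate filament protein of mesenchymal cells. *Vim* was at 7870, 7801 and 7711 TPM in Fb-Epn, at 5361, 5230 and 5269 TPM in Fb-Par and at 9309, 9313 and 9328 TPM in Fb-Skn. Its libraries lay close together within a type, with Fb-Skn above Fb-Epn and Fb-Epn above Fb-Par. By mean TPM it was rank 7 of all genes in Fb-Epn and in Fb-Skn and rank 15 in Fb-Par. The log2 fold change was 0.57 between Fb-Epn and Fb-Par (SE 0.019, edgeR adjusted p = 4.4e-12) and -0.97 between Fb-Par and Fb-Skn (SE 0.019, edgeR adjusted p = 9.7e-15). Between Fb-Epn and Fb-Skn it was -0.40 (SE 0.019, edgeR adjusted p = 2.7e-10), and -0.26 with limma on log2(TPM + 1) (adjusted p = 0.001).

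Other intermediate filament genes went in both directions. Of 12 tested genes of this list, 9 were higher and 3 lower in Fb-Epn than in Fb-Skn, with a median log2 fold change of 2.17. This median was 1.09 with limma on log2(TPM + 1). With *Gfap*, listed at 0 counts in Fb-Skn, put at a bound of 3 counts per library, its log2 fold change was 2.88. That bound still lies above the median of 2.17, which therefore could not move. Other genes of the list with few counts in Fb-Skn, such as *Nes*, were not bounded. Between Fb-Epn and Fb-Par 5 were higher, 3 lower and 4 not called (median -0.06), and between Fb-Par and Fb-Skn 5 were higher, 4 lower and 3 not called (median 0.96). The most abundant, *Lmna*, which encodes the nuclear lamins A and C, was at 498 ± 8.38 TPM in Fb-Epn, 546 ± 23.1 TPM in Fb-Par and 666 ± 9 TPM in Fb-Skn. *Nes*, the gene of the progenitor filament nestin, was at 7.36 ± 0.405, 13.3 ± 0.785 and 0.0887 ± 0.0727 TPM in the same order, with 1 to 5 counts in the Fb-Skn libraries. *Gfap*, a filament of glia that includes non-myelinating Schwann cells, had 18 to 33 counts in Fb-Epn and 26 to 52 in Fb-Par.

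*P4hb* (ENSRNOG00000036689, chromosome 10, 109736458 to 109747987, minus strand), which encodes the beta subunit of collagen prolyl 4-hydroxylase and acts as a protein disulfide isomerase (PDI), varied least. It was at 1452, 1419 and 1442 TPM in Fb-Epn, at 1140, 1132 and 1161 TPM in Fb-Par and at 1292, 1300 and 1298 TPM in Fb-Skn. The type means spanned 0.329 on the log2(TPM + 1) scale, the narrowest span of the 10 markers. On the count scale Fb-Epn and Fb-Skn did not differ by the test, with a log2 fold change of 0.01 (95% confidence interval -0.04 to 0.06, edgeR adjusted p = 0.77). The same difference was 0.15 with limma on log2(TPM + 1) (adjusted p = 0.017) and was called with scaling by library size alone (0.10, adjusted p = 0.0025). Fb-Par was lowest, with a log2 fold change of 0.34 for Fb-Epn over Fb-Par (edgeR adjusted p = 1.3e-08) and of -0.33 for Fb-Par over Fb-Skn (edgeR adjusted p = 1.4e-08). The latter value was -0.18 with limma on log2(TPM + 1) (adjusted p = 0.0068).

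The other genes that modify and fold collagen were mostly higher in Fb-Skn than in either nerve type, and mostly higher in the epineurial than in the parenchymal cells. Of 14 tested genes of the prolyl hydroxylase and disulfide isomerase list, 3 were higher and 9 lower in Fb-Epn than in Fb-Skn (median log2 fold change -0.29), 11 were higher and 1 lower in Fb-Epn against Fb-Par (median 0.25), and 1 was higher and 12 lower in Fb-Par than in Fb-Skn (median -0.42). With limma on log2(TPM + 1) these counts became 4 and 6, 7 and 1, and 1 and 9. *Serpinh1*, the collagen chaperone Hsp47, was the most abundant of them, at 3185 ± 73.2 TPM in Fb-Epn, 2954 ± 90.7 TPM in Fb-Par and 4176 ± 52.3 TPM in Fb-Skn. *P4ha3*, an alpha subunit of the enzyme that *P4hb* completes, was at 319 ± 11.3, 188 ± 13.1 and 661 ± 15.8 TPM. *Plod2*, the lysyl hydroxylase of collagen telopeptides, was instead lowest in Fb-Skn, at 722 ± 6.24, 345 ± 14.1 and 161 ± 5.07 TPM, and exceeded its Fb-Skn level in Fb-Epn by a log2 fold change of 2.02 (edgeR adjusted p = 1.1e-15).

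*Thy1* (ENSRNOG00000006604, chromosome 8, 48382121 to 48386935, plus strand), which encodes the lipid-anchored surface glycoprotein CD90, was the marker that set Fb-Skn apart by its height. It was at 717, 720 and 694 TPM in Fb-Epn, at 1040, 975 and 1004 TPM in Fb-Par and at 3039, 3087 and 3158 TPM in Fb-Skn. All Fb-Skn libraries were above all nerve libraries, and Fb-Par was above Fb-Epn without overlap. In Fb-Skn it was rank 26 of all genes by mean TPM, against rank 192 in Fb-Epn and rank 131 in Fb-Par. It differed by a log2 fold change of -2.26 between Fb-Epn and Fb-Skn (SE 0.03, edgeR adjusted p = 1.5e-16), -1.77 between Fb-Par and Fb-Skn (SE 0.029, edgeR adjusted p = 1.1e-15) and -0.49 between Fb-Epn and Fb-Par (SE 0.029, edgeR adjusted p = 2.7e-09). *Thy1* was thus a DE gene for Fb-Epn against Fb-Skn and not for Fb-Par against Fb-Skn. The genes whose pattern came nearest, by the root mean square difference of centred log2(TPM + 1) over the 9 libraries, were *Adam33* (0.0992), *Gbp5* (0.141) and *Ntn1* (0.146). The nearest, *Adam33*, which encodes a membrane metalloprotease, averaged 51.6 TPM in Fb-Epn, 71.7 TPM in Fb-Par and 217 TPM in Fb-Skn.

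*S100a4* (ENSRNOG00000011821, chromosome 2, 189997129 to 189999604, plus strand) encodes a small calcium-binding protein, also called fibroblast-specific protein. Its levels were 871, 935 and 880 TPM in Fb-Epn, 521, 500 and 557 TPM in Fb-Par and 1971, 1761 and 1749 TPM in Fb-Skn. Fb-Skn was again highest, but here Fb-Par and not Fb-Epn was lowest, and no libraries of different types overlapped. Its log2 fold change was -1.17 between Fb-Epn and Fb-Skn (SE 0.056, edgeR adjusted p = 2.4e-10), 0.78 between Fb-Epn and Fb-Par (SE 0.058, edgeR adjusted p = 3.9e-08) and -1.95 between Fb-Par and Fb-Skn (SE 0.058, edgeR adjusted p = 9.1e-13), the last just short of the threshold for DE genes. *P4ha3* was the gene of nearest pattern (0.0796), followed by *Rrm1* (0.0979), a subunit of ribonucleotide reductase, and *Anxa8* (0.14), an annexin. *S100a4* is also made by macrophages and other leukocytes. The summed TPM of the 6 leukocyte markers in the table was 1112 to 1171 in Fb-Epn, 211 to 224 in Fb-Par and 68.7 to 72.4 in Fb-Skn, with *Cd3e* at 0 counts in every library. *Lyz2*, the lysozyme of myeloid cells, made up most of this sum, at 957 ± 24.6, 178 ± 6.13 and 60.6 ± 2.27 TPM, and *Ptprc*, the leukocyte common antigen CD45, was at 5.8 ± 0.34, 1.44 ± 0.184 and 0.361 ± 0.171 TPM. The part of leukocytes in any difference of *S100a4* was not tested. This includes the difference between Fb-Epn and Fb-Par, where *S100a4* and these markers were higher in Fb-Epn.

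The promoter of *S100a4* in RefSeq (build GRCr8, chr2:178388279-178388578, plus strand), shown because *S100a4* differed more than *Vim*, the other Fb-Skn-high marker with a RefSeq entry, reads from 250 bases before to 50 bases after the start of the gene, with TATAAA in capitals.
S100a4: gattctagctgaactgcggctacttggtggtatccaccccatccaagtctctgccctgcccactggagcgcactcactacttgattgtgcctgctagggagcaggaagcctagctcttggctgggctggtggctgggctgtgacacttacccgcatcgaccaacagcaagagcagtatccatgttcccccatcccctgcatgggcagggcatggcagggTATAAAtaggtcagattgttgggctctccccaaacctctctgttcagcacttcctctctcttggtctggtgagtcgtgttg

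Among the S100 neighbours of *S100a4* on chromosome 2 its pattern was shared at most in part. *S100a16*, 68281 bases away, was lowest in Fb-Par, at 102 ± 5.87 TPM in Fb-Epn, 71 ± 4.54 TPM in Fb-Par and 92.7 ± 3.2 TPM in Fb-Skn. *S100a13*, 84613 bases away, had its highest mean in Fb-Skn, at 30.9 ± 4.39, 36.3 ± 3.89 and 47.2 ± 12 TPM in the same order. The S100 list also holds genes that are not neighbours of *S100a4*. Of 9 tested genes of the S100 list, 2 were higher, 2 lower and 5 not called in Fb-Epn against Fb-Skn (median log2 fold change -0.37). In Fb-Epn against Fb-Par 1 was higher, 3 lower and 5 not called (median -0.22), and in Fb-Par against Fb-Skn 3 were higher, 2 lower and 4 not called (median 0.30). *S100a6*, which lies 7612 bases from *S100a4* and was the most abundant gene of the list, was at 3999 ± 160 TPM in Fb-Epn, 6132 ± 471 TPM in Fb-Par and 2877 ± 268 TPM in Fb-Skn, so that Fb-Par was highest and Fb-Skn lowest. *S100a3*, only 1100 bases away, had 4 to 9 counts in Fb-Epn, 15 to 28 in Fb-Par and 1 to 11 in Fb-Skn. *S100b*, which the list of Schwann cell markers also holds, was at 130 ± 8.21, 119 ± 4.83 and 7.96 ± 1.17 TPM.

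*Fap* and *Dpp4*, the genes of fibroblast activation protein and of dipeptidyl peptidase 4 (CD26), lie on the minus strand of chromosome 3, at 48467781 to 48536235 (ENSRNOG00000005679) and 48291055 to 48372672 (ENSRNOG00000030763). The distance between them is 95.1 kb, and 2 other genes lie there. *Fap* was at 31.3, 32.1 and 34.2 TPM in Fb-Epn, at 24.2, 25.2 and 25 TPM in Fb-Par and at 16.6, 12.8 and 16.3 TPM in Fb-Skn. Each nerve library was above each Fb-Skn library, and Fb-Epn was above Fb-Par. Its log2 fold change was 0.95 between Fb-Epn and Fb-Skn (SE 0.098, edgeR adjusted p = 1.2e-06) and 0.55 between Fb-Par and Fb-Skn (SE 0.099, edgeR adjusted p = 3.0e-04). Between Fb-Epn and Fb-Par it was 0.40 (SE 0.093, edgeR adjusted p = 0.0023), a call that was lost without Fb-Epn replicate 3 (0.37, adjusted p = 0.013), without Fb-Par replicate 1 (0.38, adjusted p = 0.013) and with limma on log2(TPM + 1) (0.38, adjusted p = 0.01). *Tyro3* (0.0809), a receptor tyrosine kinase, *Stbd1* (0.0935), a starch-binding protein, and *Pde4a* (0.0984), a cAMP phosphodiesterase, came nearest to the pattern of *Fap*.

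*Dpp4* was less abundant than *Fap*, at 6.96, 5.76 and 6.8 TPM in Fb-Epn, at 8.73, 8.45 and 8.69 TPM in Fb-Par and at 2.49, 1.81 and 2.87 TPM in Fb-Skn. Fb-Skn was lowest as for *Fap*, whereas among the nerve types the order was turned, with Fb-Par above Fb-Epn in TPM. The log2 fold change was 1.30 between Fb-Epn and Fb-Skn (SE 0.15, edgeR adjusted p = 4.0e-06) and 1.70 between Fb-Par and Fb-Skn (SE 0.15, edgeR adjusted p = 1.8e-07). Between Fb-Epn and Fb-Par the log2 fold change of *Dpp4* was -0.40 (95% confidence interval -0.68 to -0.11, edgeR adjusted p = 0.022), which was not called, and which was called with only the 2 types in the fit (adjusted p = 0.0056) and without Fb-Skn replicate 2 (adjusted p = 0.0077). In TPM, *Fap* exceeded *Dpp4* 5.04 ± 0.536 times in Fb-Epn, 2.87 ± 0.106 times in Fb-Par and 6.47 ± 0.725 times in Fb-Skn, and the ratios in Fb-Par, 2.77 to 2.98, lay below all others. The genes nearest to *Dpp4* in pattern were *Lrch2* (0.112), *Fjx1* (0.127) and *Pxn* (0.129), the last encoding the focal adhesion protein paxillin.

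The rest of the protease family changed little. Of 4 tested genes, 1 was lower and 3 were not called in Fb-Epn against Fb-Skn (median log2 fold change -0.02), 2 were lower and 2 not called against Fb-Par (median -0.05), and 2 were higher, 1 lower and 1 not called in Fb-Par against Fb-Skn (median 0.10). The first of these directions is not settled, since scaling by library size alone gave 1 higher, none lower and a median of 0.07. *Dpp7*, a lysosomal dipeptidyl peptidase and the most abundant of them, was at 177 ± 7.92 TPM in Fb-Epn, 247 ± 3.04 TPM in Fb-Par and 169 ± 3.63 TPM in Fb-Skn. Genes of activated fibroblasts, the state with which *Fap* is associated, were split in Fb-Epn against Fb-Skn, with 4 higher and 5 lower of 9 tested (median -0.75). In Fb-Epn against Fb-Par 5 were higher, 3 lower and 1 not called (median 0.48), and in Fb-Par against Fb-Skn 1 was higher, 7 lower and 1 not called (median -1.18). *Acta2*, the smooth muscle actin of myofibroblasts, was at 3357 ± 116 TPM in Fb-Epn, 5051 ± 82.3 TPM in Fb-Par and 10307 ± 221 TPM in Fb-Skn, the reverse of the order of *Fap*. *Lrrc15*, a membrane protein of activated fibroblasts, was at 28.9 ± 3.24, 4.42 ± 1.02 and 44.1 ± 3.03 TPM, and *Tnc*, the gene of the matrix protein tenascin C, at 1469 ± 19.4, 260 ± 9.91 and 1014 ± 36.5 TPM.

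*Pi16* (ENSRNOG00000000525, chromosome 20, 6923489 to 6932786, plus strand) encodes peptidase inhibitor 16, a CAP superfamily protein. It was at 21.8, 18.8 and 19.4 TPM in Fb-Epn, at 14.1, 14.3 and 13.3 TPM in Fb-Par and at 5.62, 6.84 and 5.39 TPM in Fb-Skn. The 3 types followed each other in steps with no overlap, from Fb-Epn down to Fb-Skn. It differed by a log2 fold change of 1.61 between Fb-Epn and Fb-Skn (SE 0.12, edgeR adjusted p = 4.8e-08), 0.53 between Fb-Epn and Fb-Par (SE 0.11, edgeR adjusted p = 0.0012) and 1.08 between Fb-Par and Fb-Skn (SE 0.13, edgeR adjusted p = 4.2e-06). *Sgk1* (0.107), a glucocorticoid-induced kinase, *Srpx2* (0.11), a secreted sushi-repeat protein, and *Pltp* (0.114), the phospholipid transfer protein, were nearest in pattern. Of the 3 tested CAP superfamily genes, 2 were higher and 1 lower in Fb-Epn than in Fb-Skn (median 0.55), 2 were lower and 1 was not called against Fb-Par (median -0.80), and 2 were higher and 1 lower in Fb-Par than in Fb-Skn (median 0.80). The lower gene, *Crispld2*, a secreted CAP protein, was at 8.12 ± 0.262, 31.3 ± 1.3 and 51.3 ± 1 TPM, the reverse of *Pi16*.

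The genes listed with *Pi16* and *Dpp4* in the fibroblast state that both mark did not move as a block. Of 12 tested, 6 were higher, 4 lower and 2 not called in Fb-Epn against Fb-Skn (median log2 fold change 0.39), 5 were higher, 4 lower and 3 not called in Fb-Epn against Fb-Par (median -0.09), and 7 were higher, 3 lower and 2 not called in Fb-Par against Fb-Skn (median 0.49). *Limch1*, an actomyosin-binding protein, had the order of *Pi16*, at 37.7 ± 1.74, 18.1 ± 0.669 and 3.5 ± 0.174 TPM, as did *Mfap5*, a microfibril component and the most abundant of the list, at 1279 ± 36.2, 609 ± 20.1 and 412 ± 13 TPM. *Anxa3*, an annexin, was low in Fb-Skn only, at 42.1 ± 1.74, 48 ± 2.4 and 4.71 ± 0.152 TPM, with a log2 fold change of 3.19 between Fb-Par and Fb-Skn (edgeR adjusted p = 4.1e-14). *Dact2*, an inhibitor of Wnt and TGF-beta signalling, had 120 to 141 counts in the Fb-Epn libraries, 5 to 14 in Fb-Par and 0 to 3 in Fb-Skn.

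*Dpt* (ENSRNOG00000002947, chromosome 13, 83073544 to 83102401, plus strand), which encodes the matrix protein dermatopontin, was the 1 marker nearly missing from Fb-Epn. It was at 0.849, 1.42 and 2.15 TPM in Fb-Epn, from 9, 17 and 23 counts, at 33.6, 33.9 and 38.3 TPM in Fb-Par and at 21, 23 and 18.8 TPM in Fb-Skn. Every Fb-Epn library was far below every other library, and Fb-Par lay above Fb-Skn. The Fb-Epn libraries also differed most among themselves, with a coefficient of variation of 44.2% where counting error alone gives 26.7%. The log2 fold change was -3.96 between Fb-Epn and Fb-Skn (SE 0.19, edgeR adjusted p = 2.8e-10) and -4.56 between Fb-Epn and Fb-Par (SE 0.19, edgeR adjusted p = 4.0e-11), the latter the only DE difference of a marker within the nerve. Both SE are slightly below counting error and overstate the precision. Between Fb-Par and Fb-Skn the log2 fold change of *Dpt* was 0.60 (SE 0.13, edgeR adjusted p = 0.0013), which was not called with limma on log2(TPM + 0.1) (0.75, adjusted p = 0.05). *Timp3* (0.18), an inhibitor of metalloproteases bound to the matrix, came nearest in pattern, at 33.1 ± 2.01 TPM in Fb-Epn, 549 ± 13.1 TPM in Fb-Par and 306 ± 17.2 TPM in Fb-Skn, followed by *Tmeff2* (0.251), a transmembrane protein with follistatin domains, and *Odf3l1* (0.402).

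The RefSeq promoters of *Dpt* (GRCr8, chr13:79656091-79656390, plus strand) and *Cd34* (GRCr8, chr13:109008536-109008835, plus strand), the markers that were nearly missing from 1 type each, are shown in the same window, with the TATA box (TATAAA), the CCAAT box and the GC box (GGGCGG) in capitals.
Dpt: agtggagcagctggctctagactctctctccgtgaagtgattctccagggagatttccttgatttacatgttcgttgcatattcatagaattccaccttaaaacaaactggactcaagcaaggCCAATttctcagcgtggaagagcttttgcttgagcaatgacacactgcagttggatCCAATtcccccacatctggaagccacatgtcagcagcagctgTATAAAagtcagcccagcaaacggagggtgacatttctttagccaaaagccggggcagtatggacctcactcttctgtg
Cd34: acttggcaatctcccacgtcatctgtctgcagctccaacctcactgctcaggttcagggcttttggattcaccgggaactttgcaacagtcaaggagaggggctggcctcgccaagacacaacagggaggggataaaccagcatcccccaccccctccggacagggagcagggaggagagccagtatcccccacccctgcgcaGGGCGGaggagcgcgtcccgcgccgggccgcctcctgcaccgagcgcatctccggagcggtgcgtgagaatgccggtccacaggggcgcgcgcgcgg

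The *Dpt* window held 1 TATAAA, 2 CCAAT and no GGGCGG, with 47.7% G and C and 5 CG dinucleotides, whereas the *Cd34* window held 1 GGGCGG and neither of the others, with 66.3% G and C and 23 CG dinucleotides. The medians over 33469 rat promoters of this length were 51.7% and 7. Both strands were searched in the 8 marker promoters that matched a RefSeq entry by symbol, the markers not among them being *Thy1* and *Clec3b*. TATAAA lay in 3 of them (*S100a4*, *Vim* and *Dpt*) and in 14.2% of all promoters, GGGCGG in 4 (*Vim*, *P4hb*, *Pi16* and *Cd34*) and 33.1%, CCAAT in 4 (*Vim*, *P4hb*, *Dpp4* and *Dpt*) and 37.5%, and the E-box CANNTG in 5 and 72.1%. Neither the AP-1 letters TGANTCA (7.33% of all promoters) nor the TEAD letters GGAATG (14.2%) were in a marker promoter, and no motifs overlapped. A match in these letters is a description of the window only.

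The genes that mark the *Dpt* state with it were mostly lower in Fb-Epn than in Fb-Par. Of 10 tested, 6 were lower, 3 higher and 1 not called in this comparison (median log2 fold change -1.19), 4 were higher, 5 lower and 1 not called in Fb-Epn against Fb-Skn (median -0.34), and 7 were higher and 3 lower in Fb-Par against Fb-Skn (median 1.31). *Fbn1*, the microfibril protein fibrillin 1 and the most abundant of them, was at 550 ± 33 TPM in Fb-Epn, 1286 ± 27.7 TPM in Fb-Par and 444 ± 26.4 TPM in Fb-Skn. *Cxcl12*, the chemokine of stromal cells, went against *Dpt*, at 311 ± 8.32 TPM in Fb-Epn, 18.1 ± 1.96 TPM in Fb-Par and 11.1 ± 1.44 TPM in Fb-Skn. *Dpep1*, a membrane dipeptidase, was highest in Fb-Skn, at 85.8 ± 3.24 TPM against 7.85 ± 0.776 and 5.71 ± 0.272 TPM in Fb-Epn and Fb-Par. In TPM, *Pi16* exceeded *Dpt* 16 ± 8.66 times in Fb-Epn, and *Dpt* exceeded *Pi16* 2.54 ± 0.289 times in Fb-Par and 3.53 ± 0.195 times in Fb-Skn.

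*Cd34* (ENSRNOG00000045558, chromosome 13, 113691932 to 113711647, plus strand) encodes a sialomucin of the surface of stromal cells, endothelium and blood progenitors. It was at 8.02, 7.59 and 8.15 TPM in Fb-Epn, at 20.1, 22.6 and 19.8 TPM in Fb-Par and at 0.208, 0.238 and 0.118 TPM in Fb-Skn, where only 2, 2 and 1 counts stood behind it. All nerve libraries were above all Fb-Skn libraries, and Fb-Par was above Fb-Epn. Since 5 counts carry the whole Fb-Skn level, the ratio is given with its exact 95% interval for counting error only: 37.9 (16 to 118) for Fb-Epn over Fb-Skn and 98.9 (42.1 to 306) for Fb-Par over Fb-Skn. Both differences were called (edgeR adjusted p = 5.0e-10 and 9.0e-12), at fitted log2 fold changes of 5.15 and 6.54 that became 2.91 and 4.20 with limma on log2(TPM + 1), a scale that understates changes of low genes. Between Fb-Epn and Fb-Par the log2 fold change was -1.38 (SE 0.14, edgeR adjusted p = 8.2e-07).

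*Clec3b* (ENSRNOG00000004540, chromosome 8, 132241134 to 132246694, plus strand), the gene of the secreted plasminogen-binding lectin tetranectin, had the same order at higher levels. It was at 131, 132 and 132 TPM in Fb-Epn, at 308, 283 and 324 TPM in Fb-Par and at 7.58, 8.43 and 7.6 TPM in Fb-Skn. The Fb-Epn libraries were almost equal, with a coefficient of variation of 0.635% where counting error alone gives 4.19%. No libraries of different types overlapped. The log2 fold change of *Clec3b* was 3.92 between Fb-Epn and Fb-Skn (SE 0.091, edgeR adjusted p = 5.6e-14), -1.20 between Fb-Epn and Fb-Par (SE 0.057, edgeR adjusted p = 2.5e-10) and 5.12 between Fb-Par and Fb-Skn (SE 0.086, edgeR adjusted p = 1.3e-15). Both SE against Fb-Skn, where *Clec3b* had 30 to 34 counts per library, lie below counting error. Its type means spanned 5.11 on the log2(TPM + 1) scale, the widest of the 10 markers, before *Cd34* with 4.2, *Dpt* with 3.87 and *Thy1* with 2.12. As *Thy1* was highest where *Clec3b* was lowest, their ratio differed widely between skin and nerve cells, and *Thy1* exceeded *Clec3b* in TPM 5.39 ± 0.13 times in Fb-Epn, 3.31 ± 0.179 times in Fb-Par and 394 ± 25.3 times in Fb-Skn.

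The genes nearest to *Clec3b* in pattern were *Ebf2* (0.085), a transcription factor of mesenchymal and other lineages, *Sox10* (0.0857), the transcription factor of Schwann cells, and *Ngfr* (0.163), the low-affinity neurotrophin receptor. Those nearest to *Cd34* were *Erbb3* (0.116), the neuregulin receptor of Schwann cells, *Mmp15* (0.129), a membrane metalloprotease, and *Sox2* (0.14), a progenitor transcription factor. With a pseudocount of 0.1 none of these 6 stayed among the nearest 3, nor did any of those given for *Dpp4*, nor *Gbp5*, *Anxa8*, *Stbd1* and *Odf3l1*. *Ebf2* was at 16 ± 1.03 TPM in Fb-Epn, 36.7 ± 1.11 TPM in Fb-Par and 0.172 ± 0.0585 TPM in Fb-Skn, and *Sox10* at 14.5 ± 0.596 and 30.9 ± 1.2 TPM in the nerve types and at 0 counts in each Fb-Skn library.

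**Figure D3:**
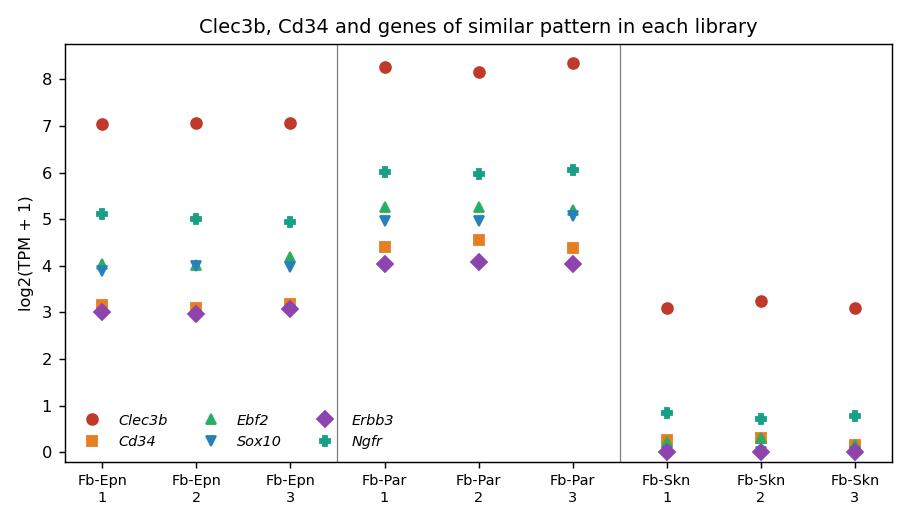
Level of *Clec3b*, *Cd34*, *Ebf2*, *Sox10*, *Erbb3* and *Ngfr* as log2(TPM + 1) in each of the 9 libraries, with vertical lines between the types. All 6 genes are highest in the 3 Fb-Par libraries and lowest in the 3 Fb-Skn libraries, where *Sox10* and *Erbb3* are at 0 and *Clec3b* stays above 3. *Ebf2*, *Sox10*, *Ngfr* and *Erbb3* were picked for their nearness to *Clec3b* or *Cd34* over these same libraries, so their shared order follows from the choice.

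Most markers of Schwann cells had the order of *Cd34* and *Clec3b*. Their list holds *Sox10*, *Erbb3* and *Ngfr*, which were picked above for that pattern. All 8 genes of this list were in the table, with a summed TPM of 193 to 203 in Fb-Epn, 268 to 275 in Fb-Par and 10.5 to 13.2 in Fb-Skn. In Fb-Epn against Fb-Skn 7 were higher and 1 was not called, in Fb-Par against Fb-Skn all 8 were higher, and in Fb-Epn against Fb-Par 7 were lower and 1 was not called. *Sox10*, *Erbb3* and *Cdh19* were at 0 counts in every Fb-Skn library, and *Cdh19*, a cadherin of Schwann cell precursors, was at 2.85 ± 0.319 TPM in Fb-Epn and 6.21 ± 0.407 TPM in Fb-Par. Their part in the differences of *Cd34* and *Clec3b* was not tested. For *Clec3b*, the level in Fb-Skn, where *Sox10*, *Erbb3* and *Cdh19* were at 0, was 7.87 ± 0.484 TPM.

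Endothelial markers, relevant because endothelium makes *Cd34*, had a summed TPM of 19.4 to 21.6 in Fb-Epn, 16.6 to 18.2 in Fb-Par and 2.46 to 3.61 in Fb-Skn over the 6 of 7 genes in the table, with *Cdh5* and *Emcn* at 0 counts in Fb-Skn. *Cdh5*, the endothelial cadherin, had 35 to 41 counts in the Fb-Epn libraries and 1 to 3 in Fb-Par. *Tek*, an angiopoietin receptor, was at 8.37 ± 0.373 TPM in Fb-Epn and 10.2 ± 0.552 TPM in Fb-Par, and the transcription factor gene *Erg* at 5.65 ± 0.928 and 6.18 ± 0.754 TPM, neither called between the nerve types (edgeR adjusted p = 0.065 and 0.66). The part of endothelial cells in the differences of *Cd34* was not tested. Of the *Cd34* family, *Podxl*, podocalyxin, had 25 to 32 counts in Fb-Epn, 3 to 6 in Fb-Par and 0 to 4 in Fb-Skn, and *Podxl2*, endoglycan, was at 20.3 ± 3.69, 34.2 ± 1.21 and 20.5 ± 1.27 TPM. Of these 2 tested genes 1 was higher and 1 not called in Fb-Epn against Fb-Skn (median log2 fold change 1.98), 1 was higher and 1 lower against Fb-Par (median 0.95), and 1 was higher and 1 not called in Fb-Par against Fb-Skn (median 1.03). Of the 4 tested genes listed with *Clec3b* as related lectins, 2 were higher, 1 lower and 1 not called in Fb-Epn against Fb-Skn (median 0.38), 1 was higher, 2 lower and 1 not called against Fb-Par (median -1.01), and 1 was higher, 1 lower and 2 not called in Fb-Par against Fb-Skn (median 0.16). *Thbd*, thrombomodulin, shared the order of *Clec3b*, at 9.48 ± 0.777, 69.2 ± 0.618 and 1.02 ± 0.124 TPM, whereas *Clec11a*, a growth factor of the skeleton, was at 86.1 ± 1.85, 13.2 ± 2.31 and 46.3 ± 0.0309 TPM.

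**Figure D4:**
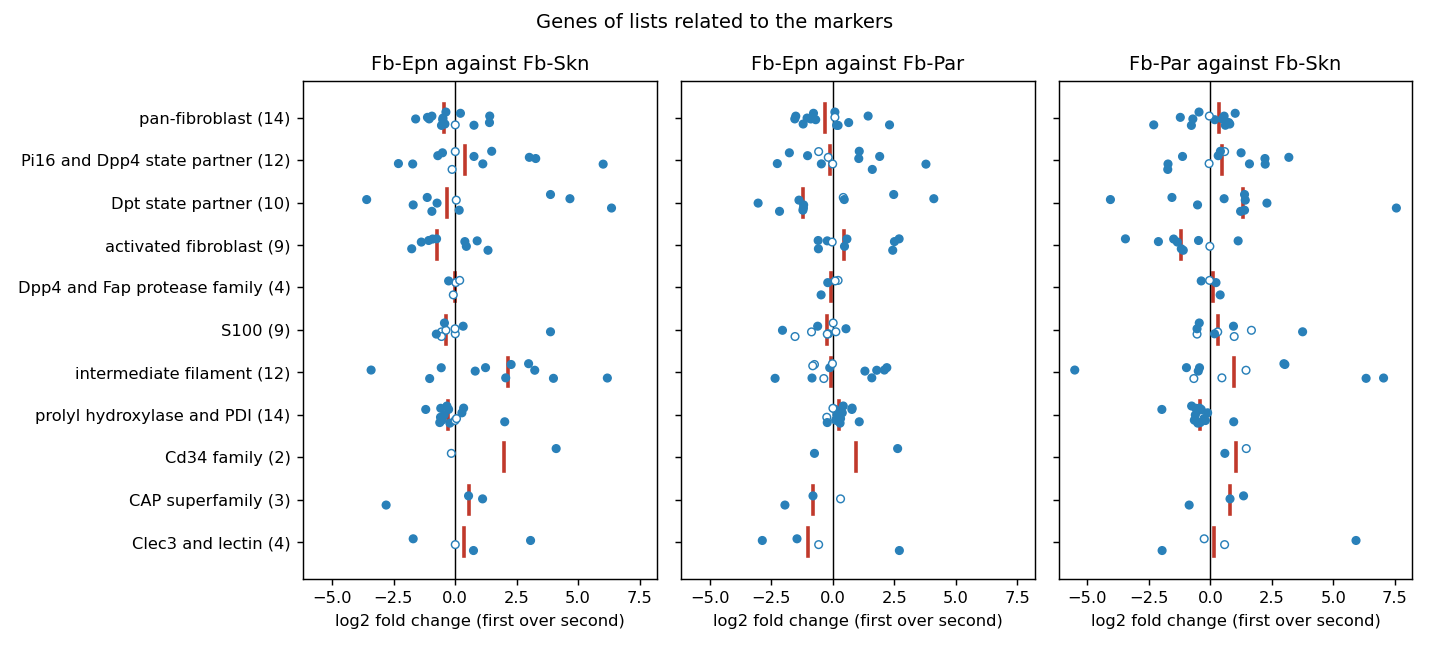
Log2 fold change (first type over second) of the tested genes of 11 lists related to the markers, the markers themselves left out, with the number tested in brackets, filled points for called genes and red lines at list medians. The intermediate filament list has its median at 2.17 in Fb-Epn against Fb-Skn, the prolyl hydroxylase list has 12 of 14 genes lower in Fb-Par than in Fb-Skn, and *Gfap*, at 0 counts in Fb-Skn, is not drawn in the comparisons with that type.

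General fibroblast genes that are not markers of a state gave no common direction either. Of 14 tested genes, 4 were higher, 9 lower and 1 not called in Fb-Epn against Fb-Skn (median log2 fold change -0.45), 6 were higher, 7 lower and 1 not called in Fb-Epn against Fb-Par (median -0.30), and 8 were higher, 5 lower and 1 not called in Fb-Par against Fb-Skn (median 0.34). *Fbln1*, the matrix protein fibulin 1, was at 38.1 ± 2.4 TPM in Fb-Epn, 7.69 ± 0.488 TPM in Fb-Par and 34.2 ± 1.24 TPM in Fb-Skn. *Pdgfrb*, a receptor of fibroblasts and pericytes, was at 128 ± 3.22, 373 ± 0.989 and 240 ± 5.07 TPM, and *Twist2*, a mesenchymal transcription factor, at 51.8 ± 2.74, 96.6 ± 5.44 and 143 ± 9.25 TPM.

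Markers of the other cell types that such cultures could hold differed in their totals. The 7 mural cell markers summed to 86 to 86.7 TPM in Fb-Epn, 395 to 411 in Fb-Par and 160 to 173 in Fb-Skn, with *Rgs5* and *Kcnj8* at 0 counts in Fb-Skn. *Mcam*, at 63.4 ± 2.79, 241 ± 5.09 and 138 ± 5.68 TPM, made up most of this sum. By gene, 5 of the 7 were higher and 2 lower in Fb-Epn than in Fb-Skn, unlike the order of the sums. Against Fb-Par 1 was higher, 4 were lower and 2 not called in Fb-Epn. In Fb-Par against Fb-Skn 6 were higher and 1 was not called. The 5 perineurial markers summed to 211 to 216, 87.2 to 95 and 114 to 126 TPM, with *Perp* at 0 counts in Fb-Epn and *Cldn1* at 0 in Fb-Skn. *Slc2a1*, at 145 ± 3.6, 34.9 ± 2.55 and 69 ± 4.63 TPM, and *Tjp1*, at 54 ± 0.67, 47.2 ± 1.19 and 39.7 ± 1.53 TPM, made up most of it. *Cldn1* had only 0 to 3 counts in the Fb-Epn libraries and 4 to 7 in Fb-Par. The 3 mesothelial markers summed to 39.8 to 50.1, 0.551 to 1.01 and 1.4 to 3.76 TPM, of which *Msln* made up 43.8 ± 5.11 TPM in Fb-Epn. Keratinocyte markers stayed between 2.45 and 4.74 TPM in sum, with *Krt5* at 0 counts in both nerve types and at 0 to 2 in Fb-Skn, adipocyte markers between 0 and 0.95 TPM and neuronal markers between 0 and 0.309 TPM. Their part in any difference of the fibroblast markers was not tested.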

How the data were processed

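The 9 RNA libraries of cultured fibroblasts were grouped as Fb-Epn, Fb-Par and Fb-Skn by the sample labels, with 3 libraries per type. The authors made directional poly(A) libraries, and their processing notes name FastQC 0.11.7, Trimmomatic 0.38, HISAT2 2.1.0, featureCounts 1.6.3 and the genome build rn6; the annotation release and the strand setting of the counting are not given in the sources used here. The authors deposited raw counts per gene, TPM and FPKM for 32883 genes. Each deposited TPM is its count over a fixed gene length, scaled, and the deposited FPKM follow another scaling. Total counts of 10084584 to 12310506 set the precision, and intervals for counts cover counting error only.

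Counts were tested with edgeR 4.0.16 in R 4.3.3 (TMM factors 0.955 to 1.03, default expression filter, quasi-likelihood F test), in 1 model of the 9 libraries with a contrast for each of the 3 pairs of types. Benjamini-Hochberg adjusted p-values were taken over the 13273 genes tested. Levels, their SD and their ranks are from the TPM. Similar genes were ranked by the root mean square difference of centred log2(TPM + 1) over the 9 libraries, for markers whose type means span at least 1 on this scale. Gene coordinates are those of the deposited tables (rn6), and no other annotated gene overlaps a marker. Promoters are from RefSeq (GRCr8, 250 bases before to 50 after the start), matched by symbol. Tables were made in Python 3.11.15 with pandas 2.3.3, intervals with scipy 1.17.1 and figures with matplotlib 3.10.9, and the edgeR steps were tested on simulated counts.

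The markers, the lists of related genes and the lists of cell type markers were chosen with earlier results of these data known. For 1 gene of these lists, which is counted in the list totals, no value of its own is reported here. The named genes are the 10 markers and the 3 genes nearest to a marker in pattern. Of each related list, up to 3 called genes with the largest change and the most abundant gene are named. Of the cell type lists only some genes are named, and not all of those at 10 TPM or more. The alternatives were RLE and upper-quartile factors, library size alone, DESeq2 1.42.0, limma 3.58.1 on log2 TPM with pseudocounts of 1 and 0.1, no filter or at least 10 counts in every library, only the 2 types compared, each library left out in turn, the replicate number as a block, an adjusted p threshold of 0.05 and a test against a log2 fold change of 1. Limma on log2(FPKM + 1) was added after seeing the data. Replicate numbers come from the labels only, and no source states that equal numbers share a rat or a batch. Replicates of a type differed by more than sampling noise (chi-square per degree of freedom 3.18 to 5.45). This cannot show that they are separate cultures, and all 9 libraries were counted as labelled.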

Additional observations from a re-analysis of the deposited data

How the results depend on the processing

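Of 594 values of single markers under 20 alternatives, 585 kept their direction and their side of the threshold, 6 were no longer called, 3 were newly called and 0 changed direction. Of those no longer called, 5 were *Fap* between Fb-Epn and Fb-Par, including limma on log2(TPM + 0.1) (0.39, adjusted p = 0.015) and on log2(FPKM + 1) (0.35, adjusted p = 0.016), and 1 was *Dpt* between Fb-Par and Fb-Skn. Newly called were *Dpp4* between Fb-Epn and Fb-Par under 2 alternatives and *P4hb* between Fb-Epn and Fb-Skn with library size alone. The cause was not tested. *Dpt* and *Cd34* could not be fitted with at least 10 counts in every library, since they fell below that minimum in Fb-Epn or Fb-Skn.

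In the order Fb-Epn against Fb-Skn, Fb-Epn against Fb-Par and Fb-Par against Fb-Skn, 5830, 5145 and 6052 genes were called and 1120, 860 and 1133 were DE genes. A test against a log2 fold change of 1 left 1392, 1137 and 1412 calls. It left 6 markers called between Fb-Epn and Fb-Skn, 2 between Fb-Epn and Fb-Par and 5 between Fb-Par and Fb-Skn. DE genes fell to 577, 419 and 576 with limma on log2(TPM + 1), to 395, 280 and 388 with limma on log2(FPKM + 1), and to 319, 344 and 373 with at least 10 counts in every library, where 2, 0 and 1 markers were DE genes. These alternatives ask for more, compress low values or test fewer genes by construction. When each library was left out by itself, 5178 to 5829, 4449 to 5220 and 5370 to 5989 genes were called, 1121 to 1189, 854 to 903 and 1132 to 1189 were DE genes, 9, 8 to 10 and 10 markers were called, and 4, 1 and 2 markers were DE genes. An adjusted p threshold of 0.05 changed no count of genes by more than 1.5 times.

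Scaling moved the median of all genes by at most 0.02 on the log2 scale with RLE or upper-quartile factors, by 0.09 with library size alone and by 0.13 to 0.15 with limma on log2 TPM in the comparisons with Fb-Skn, so small differences with that type depend on the scaling. Limma on log2(TPM + 1) put 70.5% and 67.7% of calls in the higher direction for Fb-Epn and for Fb-Par against Fb-Skn, beside 52.3% and 50.8% in the count model. The replicate numbers did not pair the libraries, since deviations of same-numbered libraries had correlations of -0.0804 to 0.0198 and 0 of 9 libraries correlated best with its own number. A fit with the replicate number as a block called 5580, 4859 and 5799 genes and changed no call of a marker. Depth limits *Cd34* in Fb-Skn, with 1 or 2 counts per library, and *Dpt* in Fb-Epn, with 9 to 23.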
